A study of Mus musculus with 6 samples.

Results

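The 4 mouse genes of the N-myc downstream regulated gene (NDRG) family, Ndrg1, Ndrg2, Ndrg3 and Ndrg4, were examined in the lens transcriptome of newborn Celf1 conditional knockout mice. The family was chosen by the large difference of Ndrg4 between the groups in these same libraries, so the Ndrg4 values describe that choice and carry no test. The members were found by symbol among the 13931 genes with values, and all 4 had an average level over 1 log2 CPM (reads scaled to a fixed library total, on a log2 scale), as did 10640 genes in all.

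RNA was sequenced from whole lenses at postnatal day 0, with 3 control and 3 Celf1cKO libraries, each from a pool of lenses. Celf1 encodes an RNA-binding protein that recognizes GU-rich sequences and controls splicing, translation and decay of mRNA. Celf1cKO mice carried 1 germline Celf1lacZKI allele, 1 Celf1flox allele and the Pax6GFPCre transgene, whose Cre is active from the lens placode stage on in lens cells and also in the pancreatic lineage. The labels give the controls as Celf1lacZKI/+, thus with 1 germline knockout allele as well, whereas the methods of the study name Celf1flox mice without Cre as the usual control. Which genotype the control lenses had was left unsettled by these sources, so every difference given here is against controls of 1 of those genotypes. Both groups were of mixed C57BL/6 and FVB background.

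NDRG proteins share an alpha/beta-hydrolase fold but lack the residues needed for hydrolase activity. NDRG1 is widely made in epithelia, is induced by low oxygen, iron loss and differentiation, and is repressed by MYC proteins, from which the family takes its name. NDRG2 is best known from astrocytes and muscle, NDRG3 is broadly made and binds lactate under low oxygen, and NDRG4 is most abundant in brain and heart.

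The sequences most closely related to the CELF1 protein are GU-rich stretches of the 3′ untranslated regions (UTRs), which are the type of RNA that it binds. The UTRs were those of the transcript with the longest annotated 3′ UTR of each gene (GENCODE M21, GRCm38). The letters TGTTTG and the repeat TGTGTGTGTGT were searched on the transcript strand. One window of 30 bases per gene is shown, with the matching letters in capitals and, for Ndrg2, the GU repeat in capitals.
Ndrg1, chr15:66929345-66929374, minus strand: ttcttaataagaTGTTTGtatttatttcca
Ndrg2, chr14:51905729-51905758, minus strand: TGTGTGTGTTGTGTGTGTGTGTGTGTGTGT
Ndrg3, chr2:156935613-156935642, minus strand: ataaggaaaagtTGTTTGattaagtgatta
Ndrg4, chr8:95714840-95714869, plus strand: ttttgtgtattcTGTTTGgtggctgataaa
TGTTTG occurred once in the UTRs of Ndrg1 and Ndrg4, 3 times in that of Ndrg3 and not in that of Ndrg2. Of annotated 3′ UTRs within 20% of the same length, 59.8% held at least 1 match for Ndrg1, 42.2% for Ndrg2, 85.8% for Ndrg3 and 65.8% for Ndrg4. The Ndrg2 UTR held 8 overlapping matches to the repeat, and the UTRs of the other members held none. At least 1 match occurred in 3.98% of UTRs of a length like that of Ndrg2, and the share with 8 was not computed. The Ndrg4 UTR carried a single short match of a common kind, and the long GU repeat lay in Ndrg2. Introns, coding sequences and the UTRs of other transcripts were not searched for these letters. A match describes the letters only and was not tested as a binding site.

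The depth was 40694454 to 44387151 reads per library, and 3 reads, taken as the smallest detectable level, equalled between 0.0609 and 0.0807 CPM. Celf1 itself was lower in Celf1cKO lenses, with 9.95, 9.94 and 9.34 log2 CPM in the control libraries and 8.93, 7.66 and 7.83 log2 CPM in the Celf1cKO libraries (log2 difference −1.60, SE 0.33, limma adjusted p = 0.0269). Cre removes only exon 5, so reads from the other exons still count, and Celf1cKO library 1 retained the highest Celf1 level of its group. Over the table, 664 genes passed the full call as higher in Celf1cKO (4.77%) and 366 as lower (2.63%). That call required an adjusted p under 0.05, a log2 difference beyond 0.58 and an average above 1 log2 CPM. With 3 libraries a group, leaving out control library 2 or Celf1cKO library 3 left a single gene called higher and none lower, against 664 and 366 with all libraries. Lens fiber cell markers were abundant in every library, with 9 of 10 in the table and a summed level of 207185 to 229303 CPM in controls and 153019 to 164876 CPM in Celf1cKO, where 5 of the 9 were called lower, or 4 with the replicate block.

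**Figure D1:**
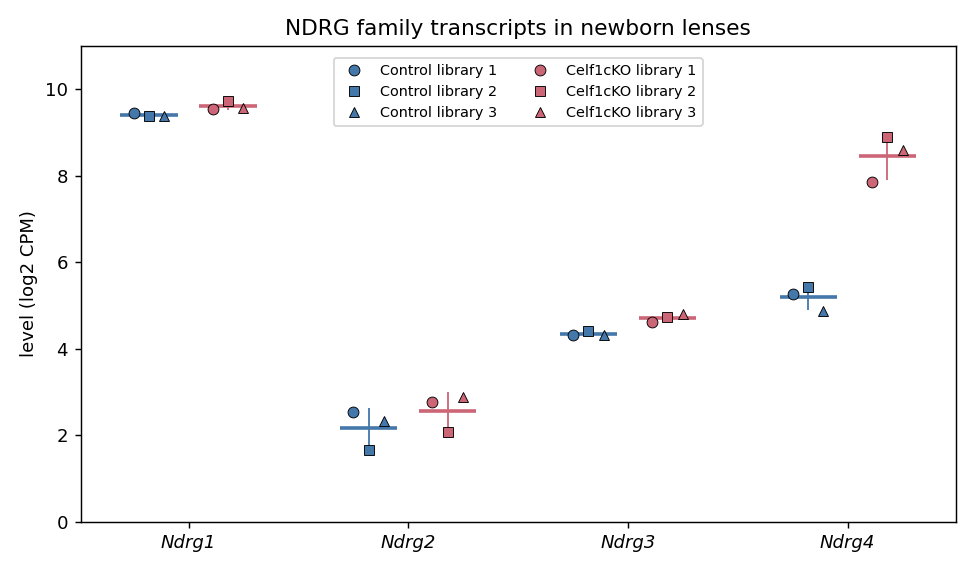
Level of each NDRG gene in log2 CPM (y axis) in the 3 control libraries (blue) and the 3 Celf1cKO libraries (red); marker shapes give the library number, horizontal lines the group means and vertical lines 1 SD. Ndrg4 moved from a mean of 5.19 to 8.44 log2 CPM, while the group means of Ndrg1, Ndrg2 and Ndrg3 lay 0.20 to 0.40 apart.

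Ndrg4 was the member with by far the widest separation. It measured 5.26, 5.44 and 4.87 log2 CPM in the control libraries and 7.85, 8.89 and 8.59 log2 CPM in the Celf1cKO libraries. The reads behind these levels numbered 1471, 1607 and 1148 in controls and 9879, 23114 and 18992 in Celf1cKO. The groups lay far apart, with 2.41 log2 units between the highest control and the lowest Celf1cKO library. Group means were 5.19 ± 0.29 and 8.44 ± 0.54 log2 CPM (SD, n = 3 each), a log2 difference of 3.25 (SE 0.27) or 9.54-fold. The difference ranked 10 among the 10640 genes with an average above 1 log2 CPM, ordered from the most to the least raised.

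Within the Celf1cKO group, Ndrg4 was lowest in library 1, the library with the highest Celf1 level, and highest in library 2, the library with the lowest. Other genes raised in Celf1cKO had this order too, and the share of all genes with it was not computed. A relation of Ndrg4 to the Celf1 level was not tested. Same-numbered libraries, which deviated together over the transcriptome, differed by 2.58, 3.46 and 3.72 log2 units for numbers 1, 2 and 3. The summed markers of lens epithelium, lens fibers, vessels and blood had the opposite order across the same 3 Celf1cKO libraries. The lens epithelial markers (5 of 6 in the table) summed to 334, 136 and 303 CPM in Celf1cKO libraries 1, 2 and 3, against 388 to 445 CPM in controls. Vessel markers (4 of 4) summed to 83.4, 20.1 and 39.9 CPM there, against 71.2 to 86.2 CPM in controls. The sums of the neuron and of the muscle and heart markers had the same order as Ndrg4 there, lowest in library 1 and highest in library 2. Among the single genes of those lists, only Eno2 (4.24, 5.15 and 4.64 log2 CPM) and Ttn (1.87, 3.61 and 2.92 log2 CPM) had it. The retina, glia and Schwann cell sums had neither order. The part of these markers in the Ndrg4 levels was not tested. In RNA from whole lenses, fewer cells of a type and less RNA per cell cannot be told apart.

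Since NDRG4 is best known from brain and heart, markers of those tissues were read beside it. Neuron markers, 11 of 14 in the table, summed to 41.1 to 66.5 CPM in controls and to 48.0, 58.9 and 51.5 CPM in Celf1cKO libraries 1, 2 and 3. These sums overlapped between the groups, but they joined genes of opposite direction. Of the 4 neuron markers with an average above 1 log2 CPM, Eno2 was higher in Celf1cKO (log2 difference 1.54). Map2 (−0.49), Rbfox3 (−0.93) and Elavl4 (−1.86) were lower. The neuronal tubulin Tubb3 and neurofilaments Nefl and Nefm were not among the genes with values. Muscle and heart markers, 4 of 11 in the table, summed to 2.37 to 3.01 CPM in controls and 8.29, 13.6 and 9.87 CPM in Celf1cKO libraries 1, 2 and 3. Without Ttn, which encodes the giant sarcomere protein titin, the sums were 1.84 to 2.43 CPM in controls and 4.63, 1.42 and 2.29 CPM in those Celf1cKO libraries, and the groups overlapped. The cardiac genes Myh6, Tnnt2 and Nppa had no values in the table. Ndrg4 itself averaged 37.0 ± 7.15 CPM in controls and 364 ± 124 CPM in Celf1cKO (SD, n = 3 each), above both sums in every Celf1cKO library. Of 61 listed markers of 8 cell types outside the lens, 33 had values and 4 were called (12.1%, background 7.39%), Eno2 and Ttn higher (background 4.77%) and Rbfox3 and Elavl4 lower (background 2.63%). With the replicate block Rbfox3 was not called (limma adjusted p = 0.0551) and Gfap was (−2.32, adjusted p = 0.0407).

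The remaining marker lists were low or did not separate the groups. Retina markers (4 of 8) summed to 1.08 to 19.3 CPM in controls and 1.61 to 10.4 CPM in Celf1cKO. Blood markers (1 of 6) lay at 0.477 to 1.39 and 0.0881 to 0.536 CPM. Schwann cell and oligodendrocyte markers (3 of 6), nearly all from Pmp22, lay at 244 to 347 and 296 to 375 CPM, with Mag and Sox10 not among the genes with values, and no cornea or skin epithelium marker of 6 had a value.

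Ndrg1 was the most abundant member. It measured 9.45, 9.39 and 9.39 log2 CPM in controls and 9.55, 9.73 and 9.56 log2 CPM in Celf1cKO, from 24940 to 41333 reads a library. Its level was higher than that of 99.2% of the genes with an average above 1 log2 CPM. The groups did not overlap but lay close, at means of 9.41 ± 0.04 and 9.61 ± 0.10 log2 CPM (SD, n = 3 each). The difference of 0.20 (SE 0.09, 95% interval −0.00 to 0.41, 1.15-fold) did not pass the limma test (adjusted p = 0.170). Its value depended on the scaling. With libraries scaled by their total reads, which shifted the median difference of the 10640 genes from 0.00 to 0.23, it was 0.43 with an adjusted p of 0.0162 in limma. Less the median difference of those genes it was thus 0.20 in either case. With each library centred on its median it was 0.18 (limma adjusted p = 0.201).

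Ndrg3 lay between the most and least abundant members. It measured 4.32, 4.41 and 4.31 log2 CPM in controls and 4.61, 4.74 and 4.80 log2 CPM in Celf1cKO, from 765 to 1374 reads a library. All 3 Celf1cKO libraries were above all 3 controls. The means of 4.35 ± 0.06 and 4.72 ± 0.10 (SD, n = 3 each) differed by 0.37 (SE 0.10, 95% interval 0.13 to 0.61, 1.29-fold). This missed the threshold in limma (adjusted p = 0.0577), and it passed on the adjusted p when only the 10640 genes were fitted (adjusted p = 0.0450), when Celf1cKO library 1 was left out (0.42, adjusted p = 0.0324), and with total-read scaling (0.59, adjusted p = 0.00999). Under total-read scaling alone it also exceeded the difference of 0.58 that the full call needs.

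Ndrg2 was the least abundant member and the most variable between control libraries. It measured 2.54, 1.65 and 2.33 log2 CPM in controls and 2.76, 2.07 and 2.88 log2 CPM in Celf1cKO, from only 115 to 359 reads a library. The groups overlapped, and library 2 was the lowest of each. Means were 2.17 ± 0.46 and 2.57 ± 0.43 log2 CPM (SD, n = 3 each), a difference of 0.40 (SE 0.31, 95% interval −0.33 to 1.12) that did not pass the limma test (adjusted p = 0.423). Within same-numbered libraries it differed by 0.22, 0.42 and 0.55, and the SE fell to 0.17 with the replicate block. The difference was 0.13 without control library 2, 0.64 without Celf1cKO library 2 and 0.24 without Celf1cKO library 3, so single libraries set its size.

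The summed markers of astrocytes and Mueller glia, the first of which NDRG2 is best known from, also varied between libraries. All 6 had values, and they summed to 46.5, 32.4 and 67.8 CPM in control libraries 1, 2 and 3 and to 42.4, 36.4 and 62.3 CPM in Celf1cKO libraries 1, 2 and 3. Library 2 had again the lowest sum of each group, and the groups overlapped. Of the single genes, only Slc1a3 was lowest in library 2 of both groups. Glul, the most abundant, was lowest in library 2 of the controls (4.63, 3.53 and 5.38 log2 CPM). In Celf1cKO it was lowest in library 1 (4.57, 4.72 and 5.57 log2 CPM). Their part in the Ndrg2 levels was not tested.

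Of the members other than Ndrg4, none was thus called (either direction, background 7.39%, and 11.9% on the adjusted p alone, made up of 7.85% higher and 4.03% lower), and both Ndrg1 and Ndrg3 had groups that did not overlap, higher in Celf1cKO (background 19.5%, and 36.5% in either direction). An exact two-sided permutation test over libraries gave p = 0.1 for Ndrg1 and Ndrg3, the smallest that 3 against 3 allows, and p = 0.4 for Ndrg2. With the replicate number as a block, the adjusted p was 0.186 for Ndrg1, 0.149 for Ndrg2 and 0.0608 for Ndrg3 in limma.

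**Figure D2:**
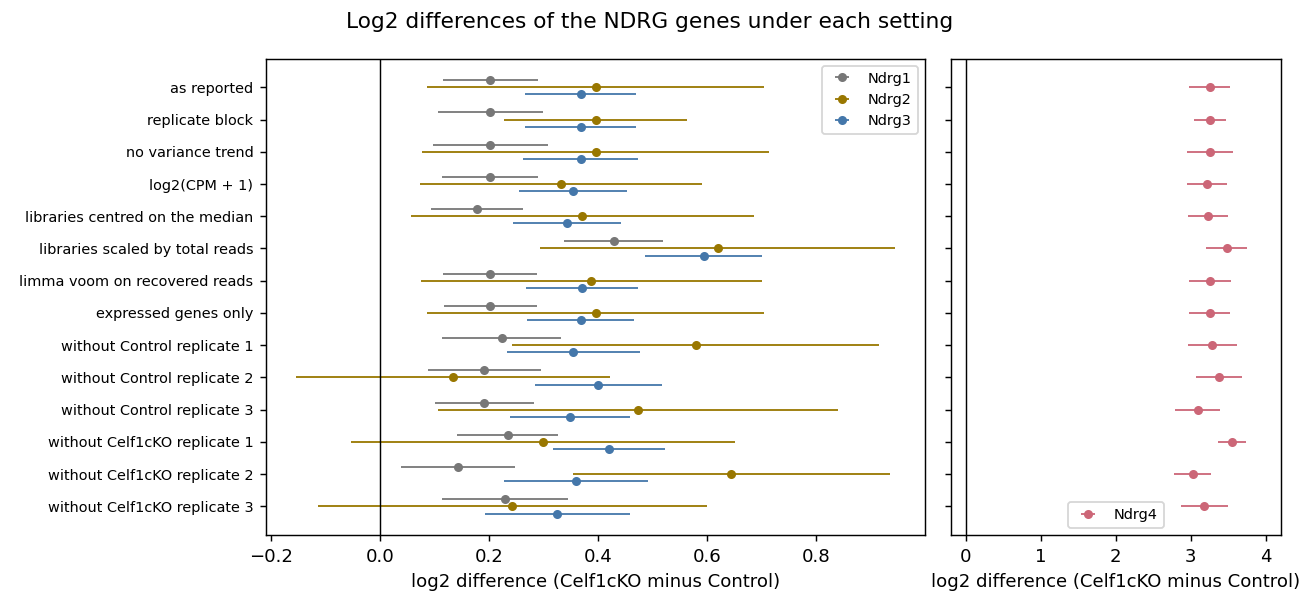
Log2 difference, Celf1cKO minus control, of each NDRG gene (x axis; Ndrg4 on its own scale at right) under the reported fit and each alternative (y axis), with bars of 1 SE. All differences stayed above 0 in the 13 alternatives; Ndrg4 kept to 3.03 to 3.55 when single libraries were left out, and Ndrg2 moved between 0.13 and 0.64.

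Levels were then compared between members on a per-length scale, in CPM per kb of merged exons (6.596 kb for Ndrg1, 3.397 kb for Ndrg2, 8.388 kb for Ndrg3 and 4.893 kb for Ndrg4). In control lenses the order was Ndrg1 (103 ± 2.66), Ndrg4 (7.56 ± 1.46), Ndrg3 (2.43 ± 0.0962) and Ndrg2 (1.37 ± 0.405 CPM per kb; SD, n = 3 each). In Celf1cKO lenses it was the same, with Ndrg1 at 119 ± 8.65, Ndrg4 at 74.4 ± 25.4, Ndrg3 at 3.14 ± 0.208 and Ndrg2 at 1.80 ± 0.492 CPM per kb (SD, n = 3 each). Neighbours in this order did not overlap between libraries in either group, but the 2 upper ones lay closer in Celf1cKO. The log2 ratio of Ndrg4 to Ndrg1 within a library, on the log2 CPM scale, averaged −4.22 in controls and −1.17 in Celf1cKO.

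Because Ndrg1 dominated the family in controls, the makeup of the family total changed with Ndrg4. The sum over the 4 members was 118, 114 and 112 CPM per kb in control libraries and 166, 231 and 199 CPM per kb in Celf1cKO libraries, 1.73 times as high on average. Ndrg4 held 6.64, 7.76 and 5.35% of that sum in controls and 28.4, 42.2 and 39.7% in Celf1cKO. The share of Ndrg1 went from 90.1% ± 1.01 to 60.7% ± 6.90 (SD, n = 3 each), although its own level was not lower. Without Ndrg4, the sum over Ndrg1, Ndrg2 and Ndrg3 was 110, 105 and 106 CPM per kb in controls and 119, 133 and 120 CPM per kb in Celf1cKO, a ratio of 1.16 (exact two-sided permutation test, p = 0.1, the smallest possible). Nearly all of this sum is Ndrg1. Within libraries, the log2 ratio of Ndrg3 to Ndrg1 was −5.13, −4.98 and −5.08 in controls and −4.93, −4.997 and −4.76 in Celf1cKO, so the groups overlapped.

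**Figure D3:**
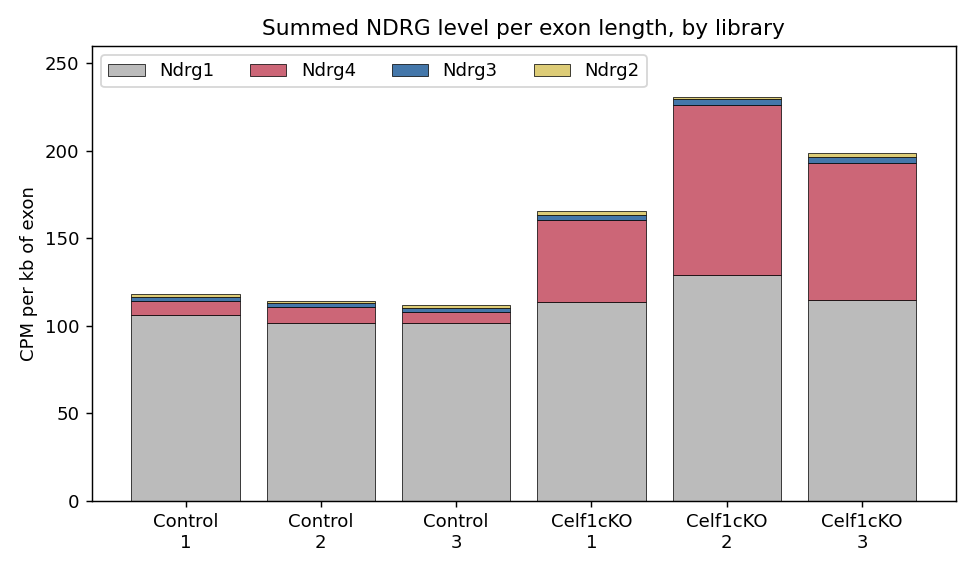
Stacked level of the 4 NDRG genes in CPM per kb of exon (y axis) in each of the 6 libraries (x axis), with Ndrg1 in grey, Ndrg4 in red, Ndrg3 in blue and Ndrg2 in yellow. The red segment grows from 5.35 to 7.76% of the bar in controls to 28.4 to 42.2% in Celf1cKO, and the grey segment is of like height in all libraries.

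The members lie on different chromosomes. In GRCm38, Ndrg4 (ENSMUSG00000036564) occupies chr8:95676980-95715119 on the plus strand. Ndrg1 (ENSMUSG00000005125) lies at chr15:66929318-66969640, Ndrg2 (ENSMUSG00000004558) at chr14:51905271-51914158 and Ndrg3 (ENSMUSG00000027634) at chr2:156927345-156992056, all on the minus strand.

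Genes beside Ndrg4 did not share the size of its difference. Setd6, a lysine methyltransferase gene that starts 761 bases beyond the end of Ndrg4 on the same strand, measured 4.87, 4.60 and 4.50 log2 CPM in controls and 4.74, 4.93 and 4.68 log2 CPM in Celf1cKO (log2 difference 0.13, limma adjusted p = 0.553). Gins3, encoding a subunit of the GINS replication complex, lies 31919 bases before Ndrg4 and was low, at 0.06, 0.17 and 0.67 log2 CPM in controls and 0.92, 2.40 and 1.92 log2 CPM in Celf1cKO. Its difference of 1.45 did not pass the limma test (adjusted p = 0.0609) and did with the replicate block (adjusted p = 0.0376).

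Of the genes flanking the other members, 1 of 6 passed on the adjusted p (either direction, background 11.9%). Rab5if, 53781 bases from Ndrg3, differed by 0.47 (limma adjusted p = 0.0335), below the size needed for the full call, and the pseudogene Gm14276, 2116 bases from Ndrg3, differed by 0.36 (adjusted p = 0.472). Mettl17 and Arhgef40 beside Ndrg2 differed by 0.05 and 0.28 (adjusted p = 0.895 and 0.383). Tg and St3gal1 beside Ndrg1 differed by −0.22 and −0.15 (adjusted p = 0.829 and 0.846).

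Transcripts were compared for sequence that reads could share. In blastn the longest alignment between members joined Ndrg4 and Ndrg3 at 68.5% identity over 941 bases, Ndrg1 and Ndrg3 were 71.1% identical over 888 bases, and Ndrg1 and Ndrg4 were 71.5% identical over 874 bases. The antisense transcript Gm17035 lies across Ndrg1 and matches it at 99.7% over 336 bases, the transcript Gm2895 overlaps its start, and the pseudogene Gm14278 matches Ndrg3 at 80.0% over 671 bases. None of the 3 had values in the table. Parts of Ndrg3 also aligned to 2956 other genes, 1773 of them in the table, at a median identity of 85.2% (up to 97.4%) over a median of 177 bases, and no such match was found for Ndrg1, Ndrg2 or Ndrg4. The authors kept only uniquely mapped reads, and how such matches bear on the Ndrg3 counts was not tested. The strand setting of the counting was not given in the sources used here.

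Since the family is named for repression by MYC proteins, which bind the E-box CACGTG, RefSeq promoters (GRCm38.p6, windows of 300 bases that end just after each start) were searched on both strands. There were 3 windows for Ndrg2, 2 for Ndrg3 and 4 for Ndrg4, and Ndrg1 had no entry. One window of Ndrg4 held the E-box, shown in capitals, and 7.15% of 32851 promoters hold it.
Ndrg4, chr8:95677513-95677812, plus strand: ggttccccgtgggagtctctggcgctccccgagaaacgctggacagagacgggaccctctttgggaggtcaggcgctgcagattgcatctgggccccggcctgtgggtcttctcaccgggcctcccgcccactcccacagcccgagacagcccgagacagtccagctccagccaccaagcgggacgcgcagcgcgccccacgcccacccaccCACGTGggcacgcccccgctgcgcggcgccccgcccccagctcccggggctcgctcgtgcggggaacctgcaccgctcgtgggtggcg
The shorter hypoxia response core ACGTG, which overlaps the E-box, occurred in no other window of these genes and in 19.6% of all promoters. The window also holds 31 CG dinucleotides, against a median of 7 over all promoters. These are counts of letters, and binding was not measured.

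Genes around the NDRG proteins were read from 6 lists, with 68 of 73 listed genes in the table. Of these 68, 3 were called higher and 2 lower, together 7.35% against a background of 7.39%, so the share called was close to that of the whole table. The median difference of all genes in the table was −0.04.

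Of the MYC family and its partners, 10 of 10 had values, with a median difference of −0.40. The call was met by 1, Mxd1, a MAX partner that opposes MYC, at 6.39, 6.71 and 6.84 log2 CPM in controls and 5.71, 5.43 and 5.27 log2 CPM in Celf1cKO (difference −1.18, limma adjusted p = 0.0101). Max, the shared partner of the MYC and MXD proteins, passed only on the adjusted p (−0.41, adjusted p = 0.0262). Mycn, the factor of the family name, measured 5.72, 6.34 and 6.09 log2 CPM in controls and 5.29, 6.12 and 5.58 log2 CPM in Celf1cKO, which did not pass the limma test (−0.38, adjusted p = 0.310; with the replicate block, adjusted p = 0.0474). Max and Mycn were picked for mention after their values were seen.

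Of the SGK and mTORC2 kinases that phosphorylate NDRG proteins, with their partners, 13 of 14 had values and the median difference was −0.20. Nedd4l, encoding a ubiquitin ligase that SGK1 phosphorylates, was the only gene called, lower by the limma test, at 5.59, 5.81 and 5.59 log2 CPM in controls and 5.10, 5.03 and 4.998 log2 CPM in Celf1cKO (−0.62, adjusted p = 0.0140). With total-read scaling its difference was −0.40, too small for the call, and Pdpk1 was called higher instead (0.78). The kinase genes Akt1 (−0.45, limma adjusted p = 0.0200) and Pdpk1 (0.55, adjusted p = 0.0340) passed on the adjusted p only. Sgk1, the best known NDRG1 kinase, measured 3.24, 1.05 and 2.99 log2 CPM in controls and 3.35, 1.23 and 3.95 log2 CPM in Celf1cKO, lowest in library 2 of both groups as Ndrg2 was (0.42, limma adjusted p = 0.763). Akt1, Pdpk1 and Sgk1 were likewise picked after their values were seen.

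The oxygen pathway was examined because it induces NDRG1. No gene of the HIF pathway was called in limma among 9 of 9 with values, with a median difference of −0.03. An unadjusted p under 0.05 was found for 3, and limma voom also called 0. At least 11.9% of all genes had such a p, since that share passed on the adjusted p. The exact share was not computed, so whether 3 of 9 exceeds it cannot be said. Of 20 listed hypoxia target genes, 18 had values and 2 were called, both higher and both encoding enzymes of glycolysis. Ldha measured 7.88, 6.69 and 6.77 log2 CPM in controls and 8.93, 8.20 and 8.56 log2 CPM in Celf1cKO (1.45, limma adjusted p = 0.0343). Pgk1 measured 8.64, 8.20 and 8.05 log2 CPM in controls and 9.75, 9.49 and 9.64 log2 CPM in Celf1cKO (1.33, adjusted p = 0.00940). The median of the list was −0.13, and 11 of its 18 genes differed by less than 0. With the replicate block 5 were called, 4 of them higher. That setting also raised the calls over the whole table, to 756 higher and 523 lower.

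Of the genes for iron handling, 8 of 8 had values and none was called in limma. Their median difference was 0.23, 4 had an unadjusted p under 0.05, and limma voom called 0. As for the HIF pathway, that count has no exact background, which is at least 11.9% of all genes, so no excess can be read from it. The same count was 5 of 13 for the SGK and mTORC2 list and 5 of 10 for the MYC family. It was 7 of 18 for hypoxia targets and 6 of 10 for partners of NDRG proteins. Aco1, encoding an iron-responsive RNA-binding protein, was the gene that passed on the adjusted p (0.53, limma adjusted p = 0.0482; with the replicate block, adjusted p = 0.0576), and it was picked for that. Ireb2 (0.32) and Hmox1 (0.37) missed the threshold in limma (adjusted p = 0.0987 and 0.0560). Both passed on the adjusted p with the replicate block (0.0457 and 0.0491).

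Reported partners of NDRG proteins had 10 of 12 genes with values and a median difference of 0.17. Rabac1, encoding a receptor for prenylated Rab proteins, was called higher in limma, at 5.21, 5.31 and 5.23 log2 CPM in controls and 5.74, 5.95 and 5.92 log2 CPM in Celf1cKO (0.62, adjusted p = 0.0132). With the replicate block, which raised the calls over the whole table as well, 2 were called.

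**Figure D4:**
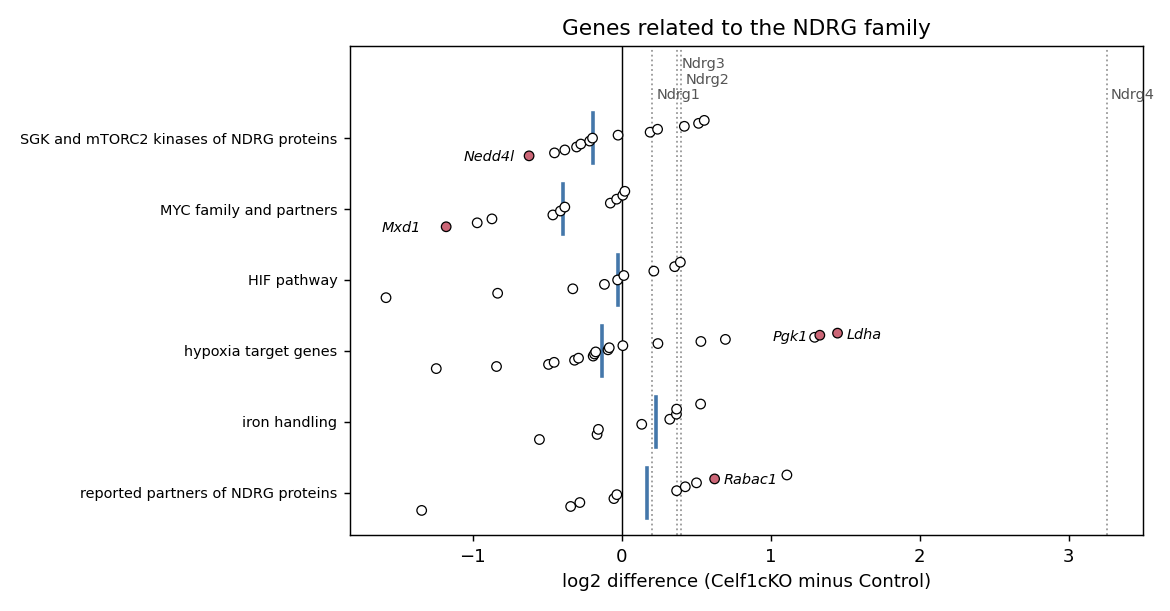
Log2 difference, Celf1cKO minus control (x axis), of each gene in the 6 lists of genes related to the NDRG family (rows); filled points passed the full call, blue bars are list medians and dotted lines mark the 4 NDRG genes. All list medians lie between −0.40 and 0.23, and no listed gene reaches the difference of 3.25 of Ndrg4.

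Finally, the genes whose levels over the 6 libraries ran closest to each member were found by the root mean square distance between centred log2 CPM values, as a description over 6 libraries that share the 2 groups. Nearest to Ndrg4 were Fabp3 (distance 0.29 log2 units, difference 3.38), Ttn (0.37, difference 3.65), Rgs8 (0.45, difference 2.52), Mylk4 (0.46, difference 3.11) and Hspb8 (0.49, difference 3.80). Fabp3 encodes the heart type of fatty acid-binding protein, Ttn encodes titin, Rgs8 a regulator of G protein signaling, Mylk4 a myosin light chain kinase and Hspb8 a small heat shock protein. Fabp3 measured 0.41, −0.32 and −0.26 log2 CPM in controls and 2.65, 3.98 and 3.35 log2 CPM in Celf1cKO, so that its libraries took the same order within the Celf1cKO group as those of Ndrg4.

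The nearest genes of the other members followed small differences. Mfsd14b (0.03), Mnat1 (0.03) and Commd3 (0.03 log2 units) were nearest to Ndrg1. Camsap1 (0.01), Nup107 (0.03) and Stx5a (0.03 log2 units) were nearest to Ndrg3. Pik3ip1 (0.07), Man1a (0.12) and Ptk7 (0.15 log2 units) were nearest to Ndrg2, and each was lowest in library 2 of both groups.

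**Figure D5:**
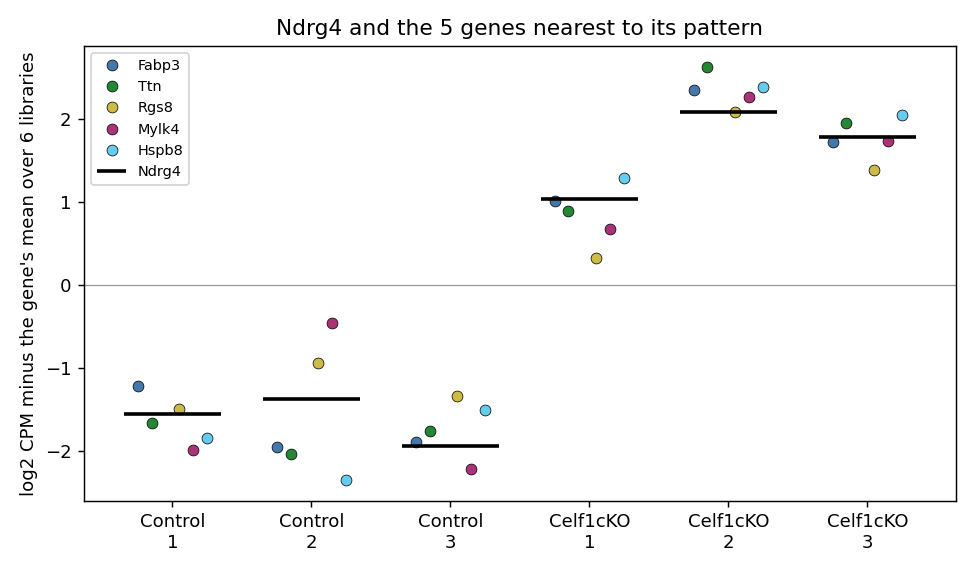
Log2 CPM minus each gene's own mean over the 6 libraries (y axis) in each library (x axis), with Ndrg4 as black bars and the 5 genes nearest to it as colored points. All 6 genes lie below 0 in the control libraries and above 0 in the Celf1cKO libraries, where library 1 is the lowest of the 3 for each gene.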

How the data were processed

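The authors trimmed the strand-specific paired-end reads, aligned them to GRCm38.p6 with STAR 2.7.8a, discarded reads that mapped to several places, assigned the rest to genes with featureCounts 2.0.0, removed genes of low CPM and scaled the libraries with edgeR. The values deposited by the authors are log2 CPM with a small prior count, 1 column per library, and their average log2 CPM per gene was used as the expression threshold. The table's log2 fold-changes, F statistics, p-values and FDR are the authors' own comparison and were not used. Whole reads were recovered from the spacing of the low deposited values in each library, and 100% of those under 1000 reads came out whole within 0.01 reads. Intervals of counting error were not computed, since the spread between libraries was the error used.

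Differences were tested with limma 3.58.1 (R 4.3.3; variance trend, Benjamini-Hochberg adjustment over 13931 genes) instead of the edgeR count test of the study, because the table holds log2 values. The code was tested on simulated data. Groups and replicate numbers came from the labels. Same-numbered control and Celf1cKO libraries deviated together (Pearson r of 0.302, 0.417 and 0.348 over 10640 genes, other pairs −0.388 to 0.0314). Deviations cancel out within a group, so higher values for some pairs lower those of the others. The sources describe no pairing, and whether the numbers pair the libraries was not tested. A fit with the replicate block was therefore only an alternative. The others were no variance trend, log2(CPM + 1), median centring, total-read scaling, limma voom on the recovered reads, a fit over expressed genes, leaving out each library, and the longest transcript as gene length. Exon lengths, neighbors and UTRs came from GENCODE M21, and transcripts were compared with blastn 2.17.0.

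Members and lists were chosen with earlier results of these data known. Named genes are the members, Celf1, called list genes, the nearest neighbors, and the genes nearest in pattern (5 for Ndrg4, 3 for each other member), with markers given by count, sum and most abundant gene. A few list genes and markers outside this rule (Max, Mycn, Akt1, Pdpk1, Sgk1, Aco1, Ireb2, Hmox1, Gfap, Slc1a3 and the called or absent markers) were named after their values were seen. Marker sums without Ttn were added after the data were seen.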

Additional observations from a re-analysis of the deposited data

How the results depend on the processing

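No member's difference changed sign in the 13 alternatives. Leaving out single libraries gave 0.14 to 0.23 for Ndrg1, 0.13 to 0.64 for Ndrg2, 0.33 to 0.42 for Ndrg3 and 3.03 to 3.55 for Ndrg4. Total-read scaling gave 0.43 for Ndrg1 and 0.59 for Ndrg3, and the fit over expressed genes 0.37 for Ndrg3, each passing on the adjusted p. That scaling shifts the median of all expressed genes by construction, and the latter fit tests fewer genes. The replicate block left the differences at 0.20, 0.40, 0.37 and 3.25 for Ndrg1 to Ndrg4. It raised the called hypoxia target genes from 2 to 5 and the partners of NDRG proteins from 1 to 2. Of the named genes outside the marker lists, it let Gins3, Mycn, Ireb2 and Hmox1 pass on the adjusted p and Aco1 miss it. It changed no call on the members or in the counts of the other 4 lists of related genes. Among the markers it ended the calls of Rbfox3 and Crygd and added Gfap. Genes called over the table were 664 higher and 366 lower in the reported fit, and 756 and 523 with the replicate block. They were 306 and 115 without the variance trend and 1663 and 204 with total-read scaling. Without single libraries they were 1 to 1039 and 0 to 877. The low ends came without control library 2 or Celf1cKO library 3, which also left no gene called in any of the 6 lists, and the high ends came without Celf1cKO library 1. Total-read scaling called 2 genes of the HIF pathway, 5 hypoxia targets, 3 genes of iron handling and 4 partners, and in the SGK and mTORC2 list it called Pdpk1 higher (0.78) in place of Nedd4l (−0.40). Without the variance trend 1 hypoxia target was called, Pgk1. Without single libraries, the counts were 0 to 2 for the HIF pathway, the MYC family and the SGK and mTORC2 kinases, 0 to 6 for hypoxia targets, 0 to 1 for iron handling and 0 to 3 for partners. With the longest transcript as length, the share of Ndrg3 was 2.71% in controls and 2.07% in Celf1cKO. The causes of the other changes were not tested. Ndrg2 had the fewest reads of the members, 115 to 359, and its SE fell from 0.31 to 0.17 with the replicate block. How far depth limited it was not tested. With 3 libraries a group, a p-value measures only the spread between these pools of lenses.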
